A study of Homo sapiens with 18 samples.

Results

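Lipid droplets store triglyceride inside the cell, and a coat of proteins on their surface sets how they grow, fuse and are broken down. The transcripts of 10 lipid droplet genes were followed in Hep3B cells, chosen by name from what their proteins do at the droplet: the perilipins PLIN2, PLIN3, PLIN4 and PLIN5, the fusion proteins CIDEB and CIDEC, the lipase PNPLA2, the lipase inhibitors G0S2 and HILPDA, and the triglyceride synthase DGAT2. They are 10 of the 36684 gene symbols counted, and 9 of them were among the 14557 genes with enough reads to be tested. CIDEB was not tested, and G0S2 reached the required 10 counts only in the RES libraries.

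Hep3B is a human hepatoma cell line, labelled here as liver cancer cells. The study asked how fucoxanthin (FUCO), a carotenoid of brown algae, acts on lipid storage, and sequenced polyadenylated RNA from 6 groups of 3 libraries. The groups were untreated control cells (Con), cells loaded with free fatty acids (Model), fatty acid-loaded cells given FUCO at 0.5, 1 or 2 μM (FUCO-0.5, FUCO-1 and FUCO-2), and fatty acid-loaded cells given Resmetirom (RES), a thyroid hormone receptor β agonist. All groups are the same line, and the 3 libraries of a group are biological replicates by the study's methods, which do not say how the cultures were kept apart; p-values measure the spread between these libraries. The 4 treatment comparisons share the same 3 Model libraries.

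Perilipins coat the droplet and limit the access of lipases. PLIN2 is the main droplet coat of hepatocytes, a gene that the fatty acid-sensing PPAR receptors are known to induce, and its protein is lost when it is not bound to a droplet. PLIN3 is present in most cells and moves from the cytosol to new droplets, while PLIN4 and PLIN5 are best known from adipocytes and from oxidative tissues such as heart. PNPLA2 (adipose triglyceride lipase) takes the first fatty acid from triglyceride, G0S2 and HILPDA inhibit it, CIDEB and CIDEC pass lipid between droplets, and DGAT2 adds the last fatty acid during triglyceride synthesis.

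Libraries held 16916688 to 23083498 counts. Levels are CPM, reads of a gene relative to the TMM-adjusted size of its library, and are not corrected for gene length unless this is said. A gene is called changed where edgeR's Benjamini-Hochberg adjusted p, taken over all 14557 genes, was under 0.05. All 10 hepatocyte and hepatoma markers were tested, and their summed level ran from 64216 to 72118 CPM in Con, 53357 to 53745 in Model, 35981 to 40543 in FUCO-2 and 15430 to 15859 in RES. Of 5 adipocyte markers only PLIN1 was tested, with ADIPOQ and CIDEA at 0, and the list summed to between 0.560 and 2.68 CPM. Con replicate 1 stood apart from the other Con libraries for several members, and also over genes, by the chi-square per degree of freedom between 2 libraries. This was 15.6 and 13.3 for Con replicate 1 against replicates 2 and 3, and 2.31 between those. FUCO-2 replicate 1 (19.4 and 18.6, against 5.73) and FUCO-0.5 replicate 2 (10.4 and 17.9, against 5.86) stood apart likewise. FUCO-1 replicate 3 and RES replicate 3 did so by less. The RES libraries stood apart from all others on the first principal component, which held 47.0% of the variance. In bulk samples fewer cells of a type and less RNA per cell cannot be told apart.

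The promoters of the 4 members with the largest changes in the 5 main comparisons (Model against Con, and each treatment against Model) are shown: PLIN2, which rose with fatty acids, PLIN4 and PLIN5, which fell with RES, and G0S2, which rose with RES. The part of these promoters in the changes was not tested. Each is the RefSeq window from 250 bases before to 50 after the start site in GRCh38.p14, written 5′ to 3′, and capitals mark ACGTG, the core of the hypoxia response element, and CACGTG, an E-box that contains it.
PLIN2, chr9:19127443-19127742, minus strand: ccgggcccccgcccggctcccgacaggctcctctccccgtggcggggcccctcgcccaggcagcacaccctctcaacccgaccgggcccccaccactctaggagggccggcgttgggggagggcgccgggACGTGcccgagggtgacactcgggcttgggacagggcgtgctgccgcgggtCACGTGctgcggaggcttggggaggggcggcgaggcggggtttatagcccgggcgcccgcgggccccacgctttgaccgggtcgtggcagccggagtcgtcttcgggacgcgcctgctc
PLIN4, chr19:4518437-4518736, minus strand: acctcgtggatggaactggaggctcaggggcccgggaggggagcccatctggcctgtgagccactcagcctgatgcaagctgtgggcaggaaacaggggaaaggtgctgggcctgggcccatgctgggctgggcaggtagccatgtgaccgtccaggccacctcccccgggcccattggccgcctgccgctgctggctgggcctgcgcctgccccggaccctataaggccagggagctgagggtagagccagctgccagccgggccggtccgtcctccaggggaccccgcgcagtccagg
PLIN5, chr19:4535175-4535474, minus strand: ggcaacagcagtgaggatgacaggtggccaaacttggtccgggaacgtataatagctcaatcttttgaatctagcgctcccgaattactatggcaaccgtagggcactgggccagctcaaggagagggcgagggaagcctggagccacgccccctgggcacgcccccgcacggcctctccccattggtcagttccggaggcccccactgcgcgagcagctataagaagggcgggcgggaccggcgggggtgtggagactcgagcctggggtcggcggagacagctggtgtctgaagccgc
G0S2, chr1:209675162-209675461, plus strand: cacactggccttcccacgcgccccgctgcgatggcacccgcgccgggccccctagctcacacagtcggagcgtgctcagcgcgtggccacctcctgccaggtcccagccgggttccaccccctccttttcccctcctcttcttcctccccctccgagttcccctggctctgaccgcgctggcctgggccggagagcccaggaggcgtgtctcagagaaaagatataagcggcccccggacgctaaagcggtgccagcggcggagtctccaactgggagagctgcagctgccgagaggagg
The PLIN2 window held ACGTG at -120 and CACGTG at -69 from the start site, and the other 3 windows held neither on either strand. Over 35116 RefSeq promoters of this length, 21.4% held ACGTG and 7.3% held CACGTG. A pair of AGGTCA sites separated by 1 base (DR1, the form PPARs bind) or by 4 bases (DR4, the form thyroid hormone receptors bind), with up to 2 mismatches on either strand, was present in 3.0% and 2.3% of all promoters and in none of the windows of the 8 members in the table. These are matches of letters in a short window and not binding sites. PLIN4 and PLIN5 lie side by side on the minus strand of chromosome 19, with 4044 bases between them.

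Fatty acid loading raised PLIN2 and left the other perilipins without a call. PLIN2 stood at 409, 398 and 386 CPM in Con and at 817, 893 and 830 CPM in Model. The groups lay far apart, and the mean went from 398 ± 11.96 to 847 ± 40.5 CPM (SD, n = 3), a 2.13-fold rise (log2 fold change 1.09, SE 0.080, adjusted p = 1.48e-09). In this comparison 17.6% of all tested genes were called, 8.43% higher and 9.12% lower, and PLIN2 was 1 of 2 members called higher. Its fold change ranked 298 by size among the 14557 genes.

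G0S2 was the other member called. It had 1, 0 and 1 counts in Con and 5, 4 and 3 in Model, so that no Con library overlapped with Model but all values were near zero. The ratio of summed counts, 12 against 2, was 5.77 with an exact 95% interval from 1.28 to 53.0 that covers counting error only. The fitted log2 fold change was 2.34 (adjusted p = 0.0395), and the call was lost when any 1 Con or Model library was left out (adjusted p from 0.0508 to 0.174) and with DESeq2 (adjusted p = 0.121). These 2 genes were also the only members whose Con and Model libraries did not overlap, against 35.7% of all tested genes.

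PLIN3 had 209, 175 and 173 CPM in Con and 211, 194 and 207 CPM in Model. The log2 fold change was 0.14 with a 95% interval from -0.11 to 0.38. PLIN4 had 205, 128 and 135 CPM in Con and 174, 179 and 152 CPM in Model, and PLIN5 had 44.7, 31.6 and 30.2 CPM against 34.6, 31.5 and 28.2 CPM. In all 3 genes the highest Con value was in replicate 1, and Con and Model overlapped. Without Con replicate 1, PLIN4 was called higher in Model (log2 fold change 0.35, adjusted p = 0.0222, against 0.11 and 0.629 with it), and the PLIN5 difference moved from -0.17 to 0.02.

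**Figure D1:**
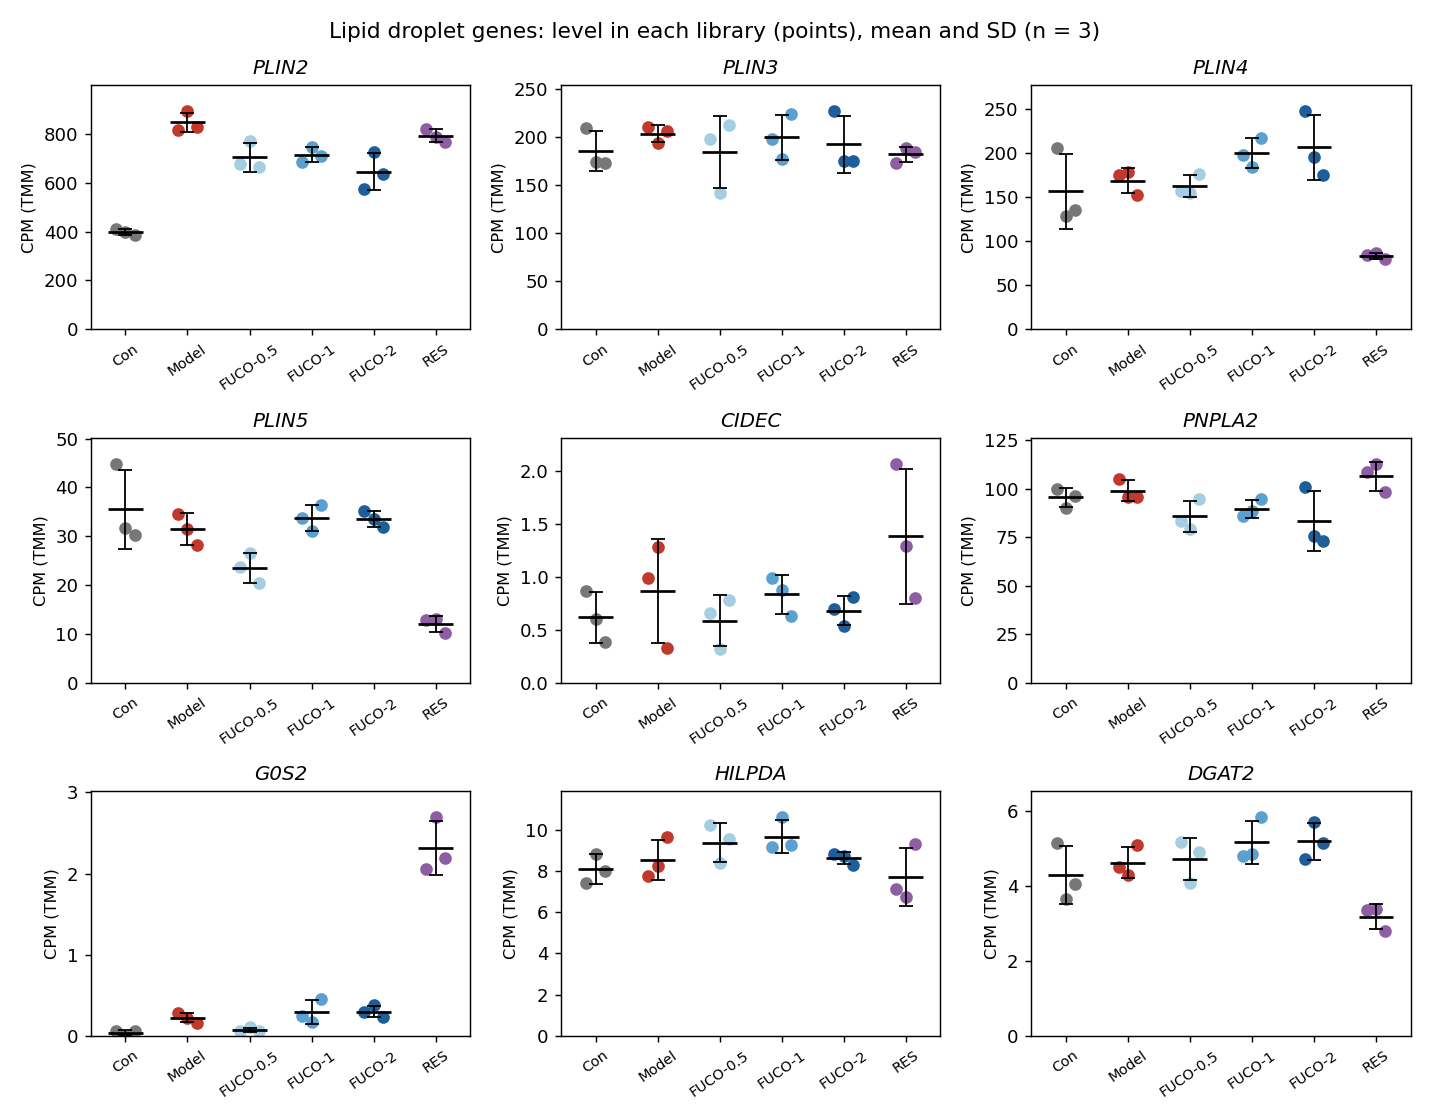
Level of the 9 tested members in CPM (vertical axis, from 0) in each of the 18 libraries, with points for libraries, black bars for the mean and SD of 3, and groups along the horizontal axis. PLIN2 lies between 386 and 409 CPM in Con and at 575 CPM or more in every fatty acid-loaded library, while PLIN4, PLIN5, DGAT2 and G0S2 set the RES libraries apart.

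PLIN2 was lower at 2 μM FUCO than in Model and stayed above its level in Con. The 3 libraries of each dose read 675, 771 and 664 CPM at 0.5 μM, 687, 746 and 710 CPM at 1 μM, and 575, 725 and 634 CPM at 2 μM. All 9 FUCO libraries were below the lowest Model library, at 817 CPM, and above the highest Con library. The fall was called at 2 μM, where PLIN2 fell by 23.8% (adjusted p = 0.000938 for a log2 fold change of -0.39 with an SE of 0.079). The log2 fold changes of the lower doses, -0.27 for FUCO-0.5 (adjusted p = 0.104) and -0.25 for FUCO-1 (adjusted p = 0.0909), were not called.

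The lower doses sat near the threshold. DESeq2 called PLIN2 lower in FUCO-0.5 (adjusted p = 0.0282) and in FUCO-1 (adjusted p = 0.0378), as did the same edgeR test without FUCO-2 replicate 1 (adjusted p = 0.0436 and 0.0426), and leaving out FUCO-0.5 replicate 2 gave -0.34 at 0.5 μM (adjusted p = 0.0494). With the 3 doses averaged, a comparison added after the data were seen, PLIN2 fell by 18.9% against Model (adjusted p = 0.00321, with a log2 fold change of -0.30 ± 0.063 SE), and it was the only member called, against 8.26% of all tested genes. The doses were not told apart: 2 μM against 0.5 μM gave -0.13 with a 95% interval from -0.29 to 0.04, and 2 μM against 1 μM gave -0.15 with an interval from -0.31 to 0.01. Against Con, PLIN2 remained higher at every dose, by 0.82, 0.85 and 0.70 on the log2 scale at 0.5, 1 and 2 μM (adjusted p = 5.63e-08, 3.99e-08 and 5.06e-07).

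RES did not lower PLIN2 by a called amount. Its libraries read 821, 786 and 768 CPM and overlapped with Model, and the log2 fold change was -0.10 with a 95% interval from -0.26 to 0.07 (adjusted p = 0.325). PLIN2 was higher with RES than with FUCO-2 by 0.30 (adjusted p = 0.00310). In order of PLIN2 level the groups ran Con, FUCO-2, FUCO-0.5, FUCO-1, RES and Model, and among neighbours only the step from Con to FUCO-2 was called. RES and FUCO-1 did not overlap either, but were not called (0.15, adjusted p = 0.117).

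Of the members, 0 were called in FUCO-0.5 against Model by edgeR, where 1.45% of all tested genes were called, 0.289% higher and 1.16% lower. DESeq2 called 1 of them, PLIN2, and 299 of 24090 genes in all. PLIN2, G0S2, PLIN5 and PNPLA2 did not overlap between these groups, 4 of 9 members against 19.6% of all tested genes, and all 4 had an unadjusted p under 0.05. How many of all tested genes had such an unadjusted p, here or at 1 μM, was not counted. In FUCO-1 against Model edgeR again called 0 members, with 3.21% of all genes called, 0.893% higher and 2.32% lower. Only 1, PLIN2, had an unadjusted p under 0.05, and it was called by DESeq2, which called 653 of 24090 genes in all. PLIN2, PLIN4 and PNPLA2 did not overlap there, against 23.3% of all genes. In FUCO-2 against Model PLIN2 was the only member called, with 20.5% of all genes called, 10.8% higher and 9.71% lower, and the only one without overlap, against 36.3% of all genes.

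PLIN5 was lowest among the FUCO groups at 0.5 μM. Its libraries had 23.7, 26.6 and 20.4 CPM at 0.5 μM, 33.6, 31.1 and 36.3 CPM at 1 μM, and 35.1, 33.5 and 31.8 CPM at 2 μM. The 0.5 μM libraries were below every Con, Model, FUCO-1 and FUCO-2 library. PLIN5 at 0.5 μM was called lower than in Con (log2 fold change -0.59, adjusted p = 0.00153, and -0.39 with adjusted p = 0.0154 without Con replicate 1), and it was called higher at 2 μM than at 0.5 μM (log2 fold change 0.50, adjusted p = 0.00868). Against Model the change was -0.41 with a 95% interval from -0.68 to -0.15 (adjusted p = 0.132), and it was called without Con replicate 1 (adjusted p = 0.0309), without the filter on low counts (0.00578) and with only the 2 groups fitted (0.0336). About 21.7% of the PLIN5 exon bases are shared with another annotated gene on the same strand.

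PLIN4 had 157, 154 and 176 CPM at 0.5 μM, 197, 184 and 217 CPM at 1 μM, and 247, 196 and 175 CPM at 2 μM. The FUCO-1 libraries lay above all Model libraries, and the FUCO-2 libraries spread widely and overlapped with Model. Against Model, FUCO-1 differed by 0.24 on the log2 scale (adjusted p = 0.366) and FUCO-2 by 0.29 (adjusted p = 0.118). The latter was called without Con replicate 1 (adjusted p = 0.0263) and without FUCO-2 replicate 3 (0.39, adjusted p = 0.0448), as well as without the filter on low counts (adjusted p = 0.00383). The FUCO-1 difference was called with only the 2 groups fitted (adjusted p = 0.0287). Against Con, PLIN4 was called higher in FUCO-2 (0.40, adjusted p = 0.0269). The call was lost without Con replicate 2, Con replicate 3 or FUCO-2 replicate 1 (adjusted p = 0.163, 0.142 and 0.170), and without Con replicate 1 the difference was 0.65 (adjusted p = 7.97e-05). FUCO-1 and FUCO-0.5 were then called higher than Con as well (0.60 and 0.30, adjusted p = 0.000255 and 0.0458, against 0.35 and 0.06 with it). PLIN3 in the FUCO groups ran from 142 to 227 CPM and was called in no pair of the 6 groups when all 18 libraries were fitted.

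PLIN4 and PLIN5 changed most with RES. PLIN4 fell to 84.4, 86.2 and 79.2 CPM, below every other library, and the change against Model was -1.02 on the log2 scale (SE 0.13, adjusted p = 7.95e-07). PLIN5 fell to 12.8, 13.1 and 10.2 CPM, also below every other library, with a change of -1.38 (SE 0.13, adjusted p = 6.39e-09). Both neighbouring genes were also lower than in Con (PLIN4 -0.91, adjusted p = 2.74e-06, and PLIN5 -1.56, adjusted p = 4.89e-10) and than in each FUCO group, and without Con replicate 1 the differences from Con were -0.67 and -1.36 (adjusted p = 1.10e-05 and 5.29e-10). PLIN3 in RES, at 173, 189 and 185 CPM, lay below all Model libraries but was not called (-0.16, 95% interval -0.41 to 0.08), except where these 2 groups alone were fitted (adjusted p = 0.00784).

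With RES, 49.4% of all tested genes were called, 24.4% higher and 25.1% lower, and 4 of the 9 members were called, 1 higher and 3 lower. The 1 called higher was G0S2, which was tested only through its RES counts. A difference from RES was built into its being tested. Among the members, 5 did not overlap between RES and Model, G0S2 among them, against 64% of all tested genes. Without G0S2 the called members were the 3 lower ones, PLIN4, PLIN5 and DGAT2, and 25.1% of all genes were called lower. In the same comparison the summed hepatocyte markers went from at least 53357 to at most 15859 CPM. Albumin (ALB) carried most of that sum, from 33912 to 7528 CPM, and 9 of the 10 markers were called lower, among them HNF4A (335 to 253 CPM) and SERPINA1 (3475 to 2481 CPM) by less, while FGB was called higher (112 to 150 CPM). The part of that shift in the members' values was not tested.

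**Figure D2:**
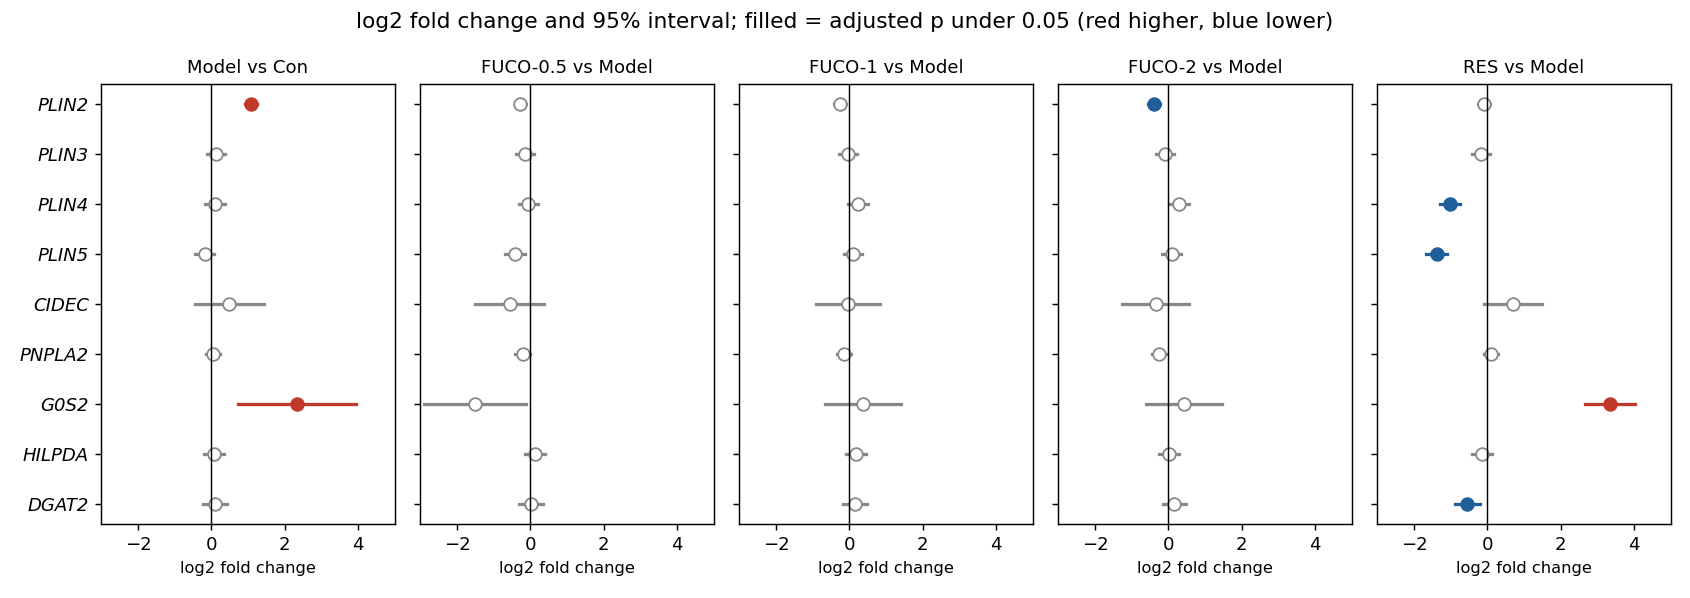
log2 fold change of each tested member (rows) in the 5 comparisons (panels), with lines for the 95% interval of the edgeR fit; filled circles mark an adjusted p under 0.05, red for higher and blue for lower. PLIN2 is filled at 1.09 in Model against Con and at -0.39 in FUCO-2 against Model, and 4 members are filled in RES against Model. G0S2, among those 4, was tested only through its RES counts.

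Per length of the main (MANE) transcript, PLIN2 was the most abundant member in every library, at 203 to 471 CPM per kb, followed by PLIN3 at 63.6 to 102 CPM per kb. PNPLA2 had 30.3 to 46.6 CPM per kb, PLIN4 had 12.2 to 38.0 and PLIN5 had 4.14 to 18.1. HILPDA lay between 4.93 and 7.77 CPM per kb, DGAT2 between 1.16 and 2.42, and CIDEC between 0.240 and 1.58. The long PLIN4 transcript thus ranked below PLIN3 per length although its CPM values reached those of PLIN3 in some libraries.

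As a share of the summed level per kb of the 4 perilipins, PLIN2 made up 63.4 ± 2.93% in Con and 77.4 ± 1.33% in Model (SD, n = 3). The shares were 75.9 ± 4.12%, 73.8 ± 2.53% and 72.0 ± 4.99% in FUCO-0.5, FUCO-1 and FUCO-2, and 80.8 ± 0.973% in RES. Every Con library was below every Model library, and the highest FUCO-2 share, 75.8%, was just below the lowest in Model, 76.1%. FUCO-0.5 replicate 2, at 80.6%, lay above every Model library, and FUCO-1 replicate 2, at 76.5%, lay within their range. The remaining libraries of these doses were below every Model library. The PLIN5 share went from 4.31 ± 0.635% in Con to 2.21 ± 0.236% in Model and 0.942 ± 0.107% with RES. A share also moves with the other perilipins in the sum. PLIN5 itself was not called between Con and Model (35.5 and 31.4 CPM, adjusted p = 0.368). PLIN2 was not called between Model and RES, where PLIN4 and PLIN5 fell. With the length of all annotated exons in place of the MANE transcript, the PLIN2 share was lower throughout, 44.6% in Con, 61.2% in Model and 65.9% with RES, in the same order.

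**Figure D3:**
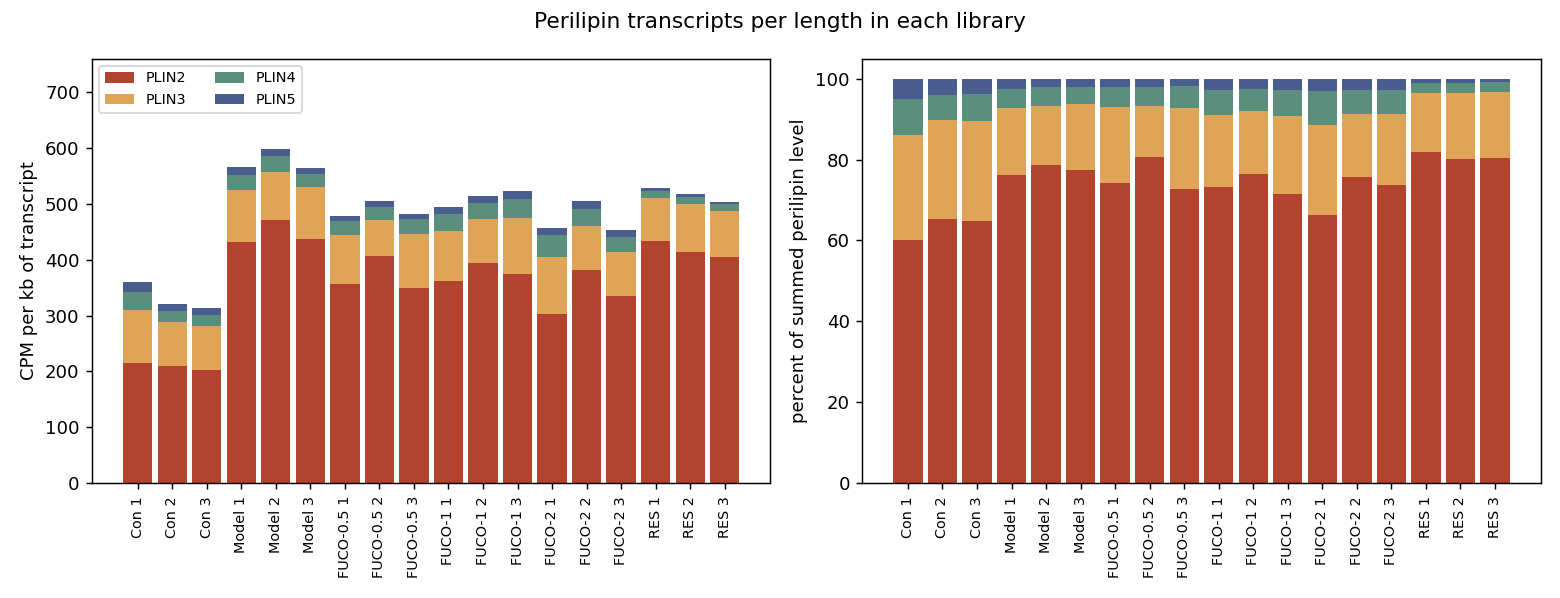
Stacked levels of the 4 perilipins in each library, in CPM per kb of transcript (left) and as a percent of their sum (right). The PLIN2 share ranges from 60.1 to 65.4% in Con and from 80.1 to 81.9% in RES, and the PLIN4 and PLIN5 bands are thinnest in RES.

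CIDE proteins enlarge droplets by passing lipid from one to another, and CIDEB is the member of the family best known from liver. CIDEB had 1 read in total over the 18 libraries, in FUCO-0.5 replicate 3. This cannot be read as absence: in GENCODE v44 100% of the CIDEB exon bases are also exon bases of NOP9 or LTB4R2 on the opposite strand, and it is not stated whether reads were counted by strand. NOP9, a nucleolar protein gene, had 478 to 1006 counts per library and LTB4R2, a leukotriene receptor gene, had 57 to 141.

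**Figure D4:**
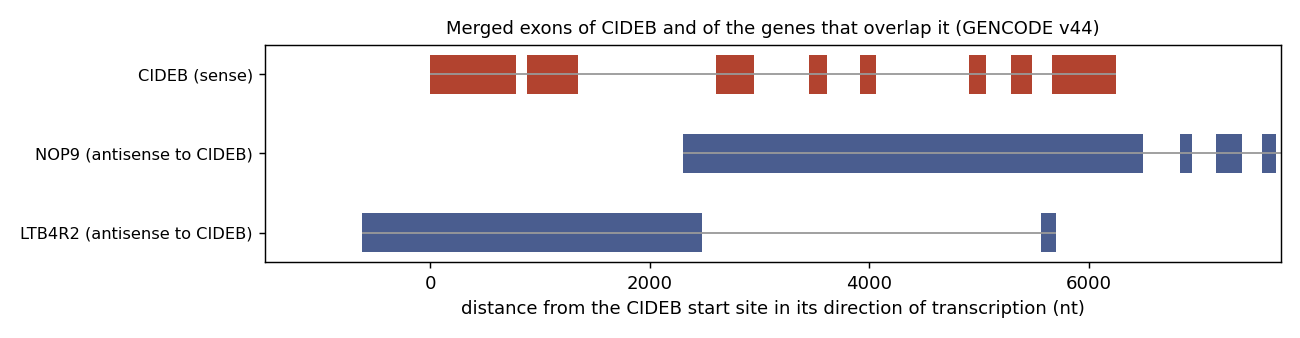
Merged exons (boxes) of CIDEB, NOP9 and LTB4R2, plotted by distance in nucleotides from the CIDEB start site in its direction of transcription. Every CIDEB exon base falls under a box of at least 1 of the 2 antisense genes.

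CIDEC was detected at 6 to 51 counts per library. It had 0.867, 0.597 and 0.379 CPM in Con, 0.987, 1.28 and 0.325 CPM in Model, and 2.06, 1.29 and 0.793 CPM in RES, and the groups overlapped. Against Model, RES gave a log2 fold change of 0.70 with a 95% interval from -0.08 to 1.49 (adjusted p = 0.129). It was called without Model replicate 2 (1.09, adjusted p = 0.0498) and without RES replicate 3 (0.98, adjusted p = 0.0385). CIDEC was called higher in RES than in Con (1.20, adjusted p = 0.0154), FUCO-0.5 (1.27, adjusted p = 0.0125) and FUCO-2 (1.05, adjusted p = 0.0326). All 3 of these calls were lost without RES replicate 1 (adjusted p = 0.168, 0.144 and 0.282), the library with 51 counts. The first was also lost without Con replicate 3 (0.0876), the second without FUCO-0.5 replicate 2 (0.0766), and the third without FUCO-2 replicate 1 (0.0641) or FUCO-2 replicate 2 (0.113). The 3 FUCO groups ran from 0.314 to 0.990 CPM, and no call was made among them.

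PNPLA2, the lipase, was close to level between Con and Model. It had 100.05, 90.3 and 96.3 CPM in Con and 105, 95.6 and 95.9 CPM in Model, and the log2 fold change was 0.05 with a 95% interval from -0.15 to 0.25. The FUCO libraries read 83.3, 79.4 and 94.8 CPM at 0.5 μM, 85.9, 88.4 and 94.7 CPM at 1 μM, and 101, 75.6 and 73.2 CPM at 2 μM. Of these 9 libraries, 8 were below the lowest Model library and FUCO-2 replicate 1 was not. No dose was called (log2 fold change -0.20, -0.14 and -0.25, adjusted p = 0.428, 0.503 and 0.0740), and at 2 μM PNPLA2 was called without FUCO-2 replicate 1 (-0.41, adjusted p = 0.00135). RES libraries, at 109, 113 and 98.2 CPM, overlapped with Model but were called higher than FUCO-2 (0.35, adjusted p = 0.00393), FUCO-0.5 (0.31, adjusted p = 0.00963) and FUCO-1 (0.25, adjusted p = 0.0336). The call against FUCO-0.5 was lost without FUCO-0.5 replicate 2 (adjusted p = 0.0533), and that against FUCO-1 without FUCO-1 replicate 1 or 2 or RES replicate 1 or 2 (adjusted p from 0.0798 to 0.124).

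G0S2, the lipase inhibitor, rose with RES from near zero. Summing each group, it had 2 counts in Con, 12 in Model, 4 in FUCO-0.5, 16 in FUCO-1, 16 in FUCO-2 and 148 in RES. The RES libraries had 51, 50 and 47 counts, and no other library had more than 8. RES against Model gave a ratio of 10.4 with an exact 95% interval from 5.78 to 20.6 for counting error only (fitted log2 fold change 3.35, adjusted p = 8.61e-09). G0S2 passed the filter on low counts through the RES libraries alone, so that a difference from them was built into its being tested. FUCO-2 was called higher than FUCO-0.5 (1.95, adjusted p = 0.0383), on 16 against 4 counts, and this was lost without any 1 library of the 2 groups except FUCO-2 replicate 3 (adjusted p from 0.0658 to 0.135). Against Con, the ratio of summed counts was 7.51 in FUCO-1 (95% interval 1.76 to 67.3) and 7.87 in FUCO-2 (1.85 to 70.5), with fitted adjusted p of 0.0110 and 0.00675, and the first was lost without Con replicate 2 (0.0644) or FUCO-1 replicate 3 (0.0764). HSD11B1-AS1 overlaps the G0S2 locus in RefSeq, but the 2 genes share 0 exon bases in GENCODE v44.

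Even in RES, G0S2 was a minor transcript beside its target. Per kb, PNPLA2 was 16.8 times G0S2 in RES on average (15.2 to 19.1 over the libraries), against 170 times in Model (139 to 214). The ratio was 481 in FUCO-0.5 (275 to 616), 132 in FUCO-1 and 105 in FUCO-2, and 637 in the 2 Con libraries with a G0S2 count. Outside RES these ratios rest on few G0S2 reads, 1 or 2 per library in FUCO-0.5 and 1 in each Con library used. Their differences between those groups were not tested. HILPDA, the other PNPLA2 inhibitor and a gene known to respond to hypoxia and to fatty acids, was present at a higher level and moved little. It had 7.40, 8.84 and 8.005 CPM in Con, 7.73, 8.23 and 9.64 CPM in Model, and 7.11, 6.73 and 9.33 CPM in RES, and all 3 groups overlapped. The 95% interval of the log2 fold change ran from -0.20 to 0.36 in Model against Con and from -0.42 to 0.13 in RES against Model. HILPDA was highest in FUCO-1, at 9.16, 10.6 and 9.25 CPM, and the only pair called was RES against FUCO-1 (-0.32, adjusted p = 0.0414), which was lost without FUCO-1 replicate 2 or 3 or RES replicate 1 or 2 (adjusted p from 0.0537 to 0.180). PNPLA2 per kb was 4.61 to 9.45 times HILPDA over all libraries. About 13.2% of the HILPDA exon bases are shared with other annotated genes on the same strand.

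DGAT2 was lower with RES. It had 4.497, 4.28 and 5.09 CPM in Model and 3.35, 3.39 and 2.80 CPM in RES, with no overlap, and the level fell by 31.2% (log2 fold change -0.54, SE 0.16, adjusted p = 0.00754). RES was also called lower than Con, which had 5.14, 3.64 and 4.06 CPM (-0.43, adjusted p = 0.0286), and than each FUCO dose. The call against Con was lost without Con replicate 1 (-0.28, adjusted p = 0.182) and without RES replicate 3 (-0.34, adjusted p = 0.117). Con against Model was not called (0.11, 95% interval -0.22 to 0.44), and the FUCO groups, from 4.08 to 5.83 CPM, were not called against Model or among themselves. DGAT2 libraries held 60 to 107 counts.

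A further 7 lists of 85 genes in all place the members in their pathway. The median log2 fold change of all 14557 tested genes was near 0 in each comparison (0.0011 in Model against Con, and against Model 0.00059 in FUCO-0.5, -0.0017 in FUCO-1, 0.0096 in FUCO-2 and 0.0023 in RES). The counts of the lists stand beside the shares of all tested genes: 8.43% higher and 9.12% lower in Model against Con, 0.289% and 1.16% in FUCO-0.5, 0.893% and 2.32% in FUCO-1, 10.8% and 9.71% in FUCO-2, and 24.4% and 25.1% in RES against Model. Other PPAR targets moved with fatty acids in the direction of PLIN2: of 14 tested, 10 rose and 2 fell, with a median of 0.37. ACOT1, an acyl-CoA thioesterase, had the larger of the 2 falls, by 0.37 on the log2 scale (adjusted p = 0.00813). At 2 μM FUCO 7 of the 14 fell, against 9.71% of all genes, with a median of -0.36, led by the fatty acid binding protein FABP1 (-0.73, 903 to 546 CPM, adjusted p = 4.07e-05). FABP1 had not risen with fatty acids (mean 1028 CPM in Con). Its FUCO-2 libraries, at 475 to 600 CPM, lay below every Con library (at least 890 CPM). ACOT1 likewise went from 65.5 CPM in Con to 50.8 in Model and 35.3 in FUCO-2, whereas CPT1A went from 105 to 179 and 136 CPM. FABP1 was also the only one called at 0.5 μM (-0.42, adjusted p = 0.0479), while at 1 μM edgeR called 0. At 1 μM 3 had an unadjusted p under 0.05, a count that was not taken over all tested genes. With RES, where 24.4% of all genes rose and 25.1% fell, 4 rose and 6 fell, from ANGPTL4, a secreted lipase inhibitor (1.60, 2.78 to 8.42 CPM, adjusted p = 1.84e-06), to VNN1, a pantetheinase (-2.44, adjusted p = 1.56e-06).

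The regulators of these genes went the other way with fatty acids. All 11 had a negative log2 fold change in Model against Con, from -0.66 to -0.11 with a median of -0.31, of which 8 were called, and the largest called fall was in the coactivator PPARGC1A (-0.66, 15.8 to 9.97 CPM, adjusted p = 0.00110). With FUCO only EPAS1 was called, higher at 2 μM (0.25, adjusted p = 0.0190). With RES 2 rose and 5 fell, PPARGC1A rising (0.97, adjusted p = 1.31e-06) and SREBF1, the lipogenic transcription factor, falling from 301 to 136 CPM (-1.15, adjusted p = 8.72e-09).

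Beside DGAT2, 16 other triglyceride synthesis genes were tested. In Model against Con 1 rose (the acyl-CoA synthetase ACSL5, 0.87, adjusted p = 0.0463) and 4 fell, led by the phosphatidate phosphatase LPIN1 (-1.22, adjusted p = 9.90e-07). The only call at 1 μM FUCO was ACSL1 (-0.35, adjusted p = 0.0419), and at 2 μM 1 rose and 6 fell. Of the glycerol-3-phosphate acyltransferases, the most abundant, GPAT4, was not called at 2 μM or with RES (104 CPM in Model, 98.6 in FUCO-2, 108 in RES). Another 2 moved apart at 2 μM, GPAT3 up from 6.35 to 12.4 CPM (0.97, adjusted p = 3.89e-05) and GPAM down from 24.9 to 12.9 CPM (-0.95, adjusted p = 0.000578). The FUCO-2 libraries of GPAM spread from 7.93 to 18.5 CPM. GPAT3 and GPAM also marked the extremes with RES, GPAT3 at 1.81 and GPAM at -1.58 (adjusted p = 7.66e-11 and 1.66e-07), where 3 of the 16 rose and 6 fell, against 24.4% and 25.1% of all genes.

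**Figure D5:**
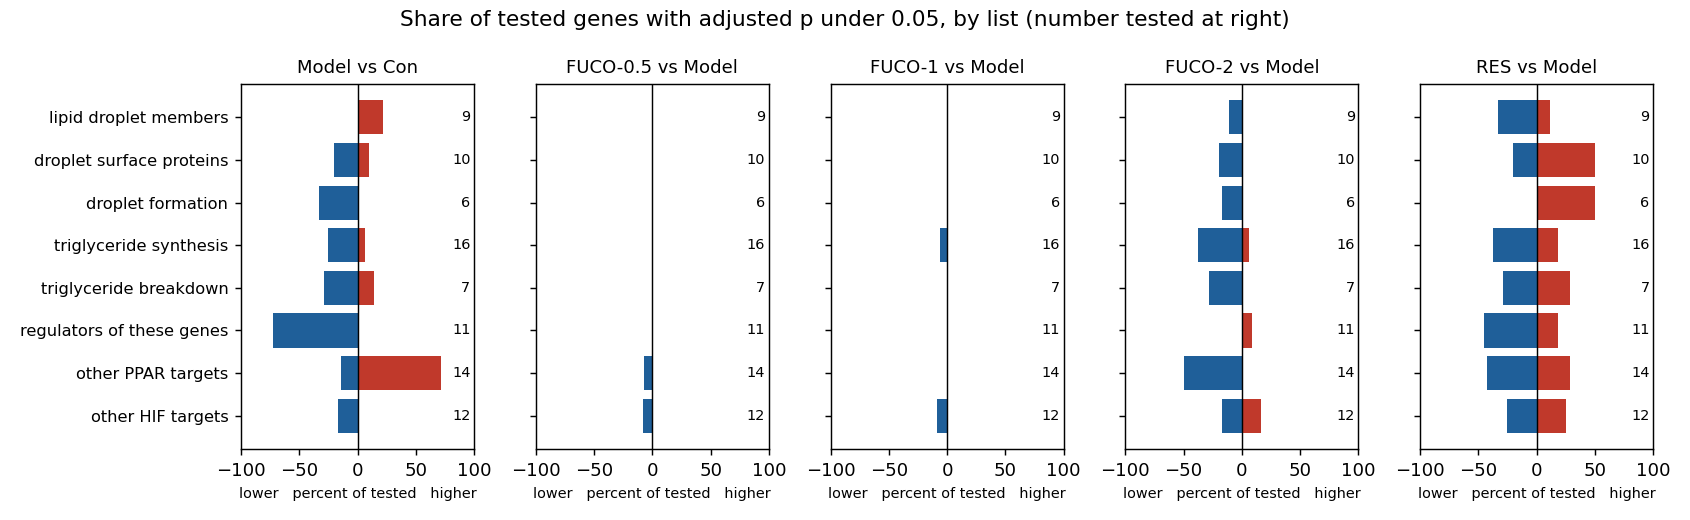
Percent of the tested genes of each list that were called higher (red, right) or lower (blue, left) in the 5 comparisons, with the number tested at the right of each panel. Other PPAR targets (10 of 14 higher) and regulators (8 of 11 lower) stand out in Model against Con, and few genes of any list were called at 0.5 and 1 μM FUCO.

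Among 7 tested genes of triglyceride breakdown other than PNPLA2, 1 rose and 2 fell in Model against Con. AADAC, a microsomal lipase, was the one that rose (1.02, adjusted p = 0.000171), and it fell most with RES (-2.80, 13.1 to 1.85 CPM, adjusted p = 2.63e-11). ABHD5, the coactivator of PNPLA2, was the largest of 2 rises with RES (0.43, adjusted p = 0.00515), beside 2 falls. At 2 μM FUCO 2 of the 7 fell, and the lysosomal acid lipase gene LIPA led them (-0.73, adjusted p = 4.81e-05).

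Of 10 tested droplet surface proteins, 1 rose and 2 fell with fatty acids. These included FAF2, a droplet and ER adaptor (0.24, adjusted p = 0.0209), and HSD17B11, a droplet dehydrogenase (-0.29, adjusted p = 0.0203). At 2 μM FUCO 2 fell, TMT1A most (-0.51, adjusted p = 0.00804). With RES 5 rose and 2 fell (24.4% and 25.1% of all genes), from TMT1B (0.85, adjusted p = 2.89e-07) to the adipocyte perilipin PLIN1 (-1.39, 1.99 to 0.770 CPM, adjusted p = 0.000615), so that 3 perilipins, PLIN1, PLIN4 and PLIN5, were lower with RES. Of 6 droplet formation genes, 2 fell with fatty acids, the larger in ACSL3, an acyl-CoA synthetase of nascent droplets (-0.93, 908 to 478 CPM, adjusted p = 6.42e-07). The only call of this list at 2 μM FUCO was CDS2 (-0.26, adjusted p = 0.00783), and with RES 3 rose, led by CDS1 (0.67, adjusted p = 0.000839).

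HILPDA is a hypoxia-inducible gene, and 12 other HIF targets were tested beside it. In Model against Con 2 fell, with PFKFB4 lowest (-1.15, adjusted p = 4.13e-06), and ADM was the only one called in FUCO-0.5 (-0.90, adjusted p = 6.22e-05) and in FUCO-1 (-1.11, adjusted p = 1.96e-06). At 2 μM 2 rose and 2 fell, SLC2A1 rising most (0.59, adjusted p = 0.00108), and ADM was again lower (-0.72, adjusted p = 0.000196). With RES 3 rose and 3 fell, near the share of all genes (24.4% and 25.1%), ADM among those higher (0.71, adjusted p = 1.44e-05) and CA9 lowest (-3.13, 1.54 to 0.165 CPM, adjusted p = 2.83e-05).

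The genes whose 6 group means ran closest to those of a member were sought over 13076 genes with a mean of at least 1 CPM, by the root mean square difference of centred log2 group means. For PLIN2 they were BTN2A3P (0.052), RIMS2 (0.094) and PIK3C2G (0.099), all with group means between 0.630 and 2.08 CPM and wide spreads, while PLIN2 itself varied by 1.09 between its lowest and highest group. For DGAT2, which varied by 0.69, they were CHDH (0.031), DAB2IP (0.037) and FUOM (0.040), each lowest in RES. For PNPLA2 they were SLC35E1 (0.030), CTDSP2 (0.031) and GANAB (0.032), and for HILPDA they were TFDP1 (0.022), CDON (0.023) and PHF13 (0.027). PNPLA2 and HILPDA varied by 0.37 and 0.33, so genes that vary little between groups lie close to them.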

How the data were processed

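RNA-seq of 18 Hep3B libraries was analysed, assigned to groups and replicates by their titles and matched to columns by library name. The authors trimmed reads with fastp, aligned them with STAR to GRCh38 and counted reads per gene with featureCounts; the deposited counts are whole numbers without normalization, and all columns were used. The strand setting, the handling of multimapping reads, the FFA concentration, the duration of treatment and the RES dose of these libraries are not given in the sources used here. Reads carry no molecular identifiers, so intervals on counts cover counting error only.

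The study's methods used DESeq2. Here the main test was edgeR 4.0.16 in R 4.3.3: filterByExpr (minimum count 10, minimum total 15), TMM normalization and a quasi-likelihood model in which each group had its own term, fitted to the 18 libraries together and leaving 12 residual degrees of freedom, with a prior count of 0.125 for fold changes and two-sided p-values adjusted by the Benjamini-Hochberg method. Simulated counts were used as a test for Model against Con: over 14368 genes, 88 of 100 genes changed by 1 on the log2 scale and 98 of 99 tested genes changed by 2 were recovered, 11 unchanged genes were called, and 0 were called in a comparison without change. The counts were drawn from edgeR's own model with the spread fitted to these data, with few genes changed and no library set apart. They do not cover data that depart from that model. Lengths and exon overlaps came from GENCODE 44 and positions and promoters from RefSeq GRCh38.p14; 8 of the 10 members were in the promoter table, and HILPDA and DGAT2 were not. The DR4 search, and leaving out libraries in comparisons beyond the 5 main ones, were added after the data were seen.

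The members, lists and tests were chosen with earlier results of these data known. Genes named were the 10 members, the 3 genes of most similar profile for PLIN2, HILPDA, PNPLA2 and DGAT2, and genes with the largest called rise or fall of each list in each comparison. Some genes that this rule names are not reported here. Alternatives were DESeq2 1.42.0, RLE factors, no filter, at least 10 counts in every library, only the 2 groups fitted, no RES group, an absolute log2 fold change over 1, a replicate block, and leaving out each library. In the main comparisons, same-numbered libraries deviated together weakly at most (correlations from -0.0450 to 0.126, over 0.1 in 3 of 15 library pairs). The numbers were therefore not taken as pairs, and the remaining pairs of groups were not checked.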

Additional observations from a re-analysis of the deposited data

How the results depend on the processing

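Of 1098 member fold changes recomputed under alternatives, 1054 kept their direction and their side of the threshold, 8 lost a call, 20 gained one and 16 changed sign. In Model against Con 2 members were called, and 1 without the low-count filter, with at least 10 counts in every library, with only 2 groups fitted, without the RES group and with DESeq2 (1 to 2 when a library was left out). In that order, these runs called 2627 of 24090, 2440 of 12850, 2589 of 13901, 2219 of 14381 and 2557 of 24090 genes in all. G0S2 was the member lost, because it was not tested or, without the filter and with DESeq2, had adjusted p = 0.0838 and 0.121. In FUCO-0.5 against Model 0 became 2 without the filter, 1 with 2 groups and 1 with DESeq2 (0 to 1 when a library was left out). Over all genes these runs called 354 of 24090, 351 of 13949 and 299 of 24090. In FUCO-1 against Model 0 became 2 with 2 groups and 1 with DESeq2 (0 to 1), and in FUCO-2 against Model 1 became 3 without the filter and 0 where an absolute log2 fold change over 1 was required (1 to 2). Over all genes the FUCO-1 runs called 976 of 13971 and 653 of 24090. The FUCO-2 runs called 3036 of 24090 and 233 of 14557. RES against Model kept 3 to 5 calls. The counts moved on leaving out a single library for each Con and Model library except Con replicate 1 in Model against Con, for Con replicate 1, FUCO-0.5 replicate 2 or FUCO-2 replicate 1 in FUCO-0.5 against Model, for FUCO-2 replicate 1 in FUCO-1 against Model, and for Con replicate 1, FUCO-2 replicate 1 or FUCO-2 replicate 3 in FUCO-2 against Model. Among these, Con replicate 1, FUCO-0.5 replicate 2 and FUCO-2 replicate 1 also stood apart from their groups over genes. The cause of the moved counts was not tested.

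All sign changes came from leaving out a library and concerned values that were not called. The ranges were -0.017 to 0.35 for PLIN4, -0.28 to 0.025 for PLIN5 and -0.017 to 0.15 for HILPDA in Model against Con, -0.26 to 0.015 for PLIN3 and -0.043 to 0.12 for DGAT2 in FUCO-0.5 against Model, -0.12 to 0.049 for PLIN3, -0.43 to 0.35 for CIDEC and -0.077 to 0.64 for G0S2 in FUCO-1 against Model, and -0.74 to 0.044 for CIDEC and -0.055 to 0.11 for HILPDA in FUCO-2 against Model.

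With a replicate block, 2 members were called in Model against Con, 0 in FUCO-0.5, 0 in FUCO-1, 1 in FUCO-2 and 4 in RES against Model, and no member's call changed. Counts were lowest for G0S2, CIDEC and DGAT2, with at most 51, 51 and 107 counts per library.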
